A study of Mus musculus with 24 samples.

Results

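In all, 10 genes were followed: the regenerating (Reg) family genes Reg1, Reg3a, Reg3b, Reg3g and Reg4, together with Retnlb, Nlrp6, Lcn2, Duox2 and Duoxa2, whose products take part in the defence of the intestinal surface. The 10 genes were taken by symbol from the 54146 genes of the count tables and were followed in all 8 groups of organoids grown from the mouse small intestine. In the genotype experiment, WT, Cdk8-/- (Cdk8-KO), Cdk19-/- (Cdk19-KO) and Cdk8-/-/Cdk19-/- (double-KO) organoids were compared after 7 days in 600 nM 4-hydroxytamoxifen, with 3 libraries per group. In the inhibitor experiment, WT organoids were given the vehicle DMSO or Senexin B, a small-molecule inhibitor of CDK8 and CDK19, for 16 h or 24 h, again with 3 libraries per group; their labels carry the statement on 4-hydroxytamoxifen too. Cdk8 was removed from a loxP-flanked allele by a Cre recombinase that the Villin promoter drives in the intestinal epithelium and that 4-hydroxytamoxifen switches on. Cdk19 was mutated with a lentiviral guide RNA and single organoids were expanded, so line and genotype cannot be told apart for the groups that lack Cdk19. The paper took organoids from mice without and with the Cre. Loss of Cdk8 therefore cannot be told apart from the Cre or the source mice either. The labels call the libraries biological triplicates but do not say which cultures or mice they came from, so the p-values measure the spread between these libraries.

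The products of the 10 genes act in several ways on the epithelial surface. Reg proteins are small secreted C-type lectins. REG3B and REG3G bind bacterial cell walls, and REG3G holds Gram-positive bacteria at a distance from the epithelium; in the animal their genes are switched on by microbial signals and by the cytokine interleukin-22 acting through STAT3. RELMβ (Retnlb) is a secreted goblet cell protein, NLRP6 is a cytoplasmic sensor of the inflammasome family, and lipocalin 2 (Lcn2) withholds iron from bacteria by binding their siderophores. DUOX2 is the NADPH oxidase that makes hydrogen peroxide at the apical membrane, and DUOXA2 is the partner it needs to mature and reach that membrane. Organoids in culture hold epithelial cells and normally no bacteria.

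The genotype tables hold 41879958 to 42068649 reads per library, of which 14636861 to 15473180 were counted on genes, and the inhibitor tables hold 36042777 to 36255610, of which 27075937 to 28405118 were counted. The genotype libraries carried no strand information, since 49.6 to 49.7% of their stranded reads fell in the strand column used, against 87.9 to 90.5% in the inhibitor libraries. Levels are therefore compared within an experiment only. The intestinal epithelium markers Epcam, Cdh1, Krt8, Krt18, Cdx1, Cdx2 and Vil1 summed to 6120 to 8229 CPM (library-size scaled counts) in the genotype libraries and 7415 to 10167 in the inhibitor libraries. Summed immune markers reached at most 5.80 CPM and summed stromal markers 3.93 CPM. The labels name 4T1, a mammary tumour line, as the cell type of the genotype libraries, in which 5 mammary markers summed to 0 to 0.876 CPM. Cdk8 transcripts did not fall in the libraries labelled Cdk8-KO (634 to 857 normalised counts against 534 to 646 in WT). Cdk19 transcripts split the groups labelled as lacking Cdk19. The libraries labelled Cdk19-KO replicate 1 and double-KO replicate 3 had 729 and 773 normalised counts, at or above the 711 to 749 of WT, while the other 4 had 420 and 422 in Cdk19-KO and 403 and 355 in double-KO. For its knockout organoids the paper reports loss of the Cdk8 exon by genotyping and absence of both proteins by Western blot. It also reports loss of Cdk19 mRNA by qPCR, and a return of CDK8 protein in some double-knockout populations after longer culture. These reports are not tied to single libraries. Counts over a whole gene do not show a lost exon or a small mutation, so they neither establish nor refute a label. The counts of calls that involve Cdk19-KO or double-KO, and the values of the main members, are therefore given also without both libraries.

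Reg3b, Reg3a, Reg1 and Reg3g lie within a short stretch of chromosome 6 in the mouse assembly GRCm38, in that order at chr6:78370657-78373466, chr6:78380709-78383827, chr6:78422711-78428667 and, on the minus strand, chr6:78466269-78468872. Reg4 lies apart at chr3:98222156-98236748, Nlrp6 at chr7:140920902-140929192 and Retnlb at chr16:48816856-48818892. Duox2, at chr2:122279247-122298449 on the minus strand, and Duoxa2, at chr2:122298900-122302885 on the plus strand, point away from each other with 450 bases between their annotated starts. Lcn2 is on the same chromosome at chr2:32384633-32388252. Of 50-base windows of the transcripts, 41.1% of those of Duoxa2 also occur in a transcript of another gene, mostly Duoxa1, which overlaps it on the opposite strand. The share was 6.05% for Duox2 (Duox1), 3.65% for Reg1 and 0% for the other 7 genes.

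The 250 bases upstream of the starts of Duoxa2 and Reg3g are shown because Duoxa2 had the steadiest rise with Senexin B, and because Reg3g rose with Reg3b and, unlike Reg3b, has a window free of annotated exons. Sequences are from RefSeq (GRCm38.p6), 5′ to 3′ on the strand of the gene, and capitals mark the letters TATAAA on either strand and, in Reg3g, a match to the NF-kappaB site. The Duoxa2 window is chr2:122298650-122298899 on the plus strand and the Reg3g window is chr6:78468875-78469124 on the minus strand.
Duoxa2: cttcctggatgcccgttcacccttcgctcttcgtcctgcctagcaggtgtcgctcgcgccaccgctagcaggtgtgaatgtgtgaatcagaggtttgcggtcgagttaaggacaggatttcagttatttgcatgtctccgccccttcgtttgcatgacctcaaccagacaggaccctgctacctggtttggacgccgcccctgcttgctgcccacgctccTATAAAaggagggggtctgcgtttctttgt
Reg3g: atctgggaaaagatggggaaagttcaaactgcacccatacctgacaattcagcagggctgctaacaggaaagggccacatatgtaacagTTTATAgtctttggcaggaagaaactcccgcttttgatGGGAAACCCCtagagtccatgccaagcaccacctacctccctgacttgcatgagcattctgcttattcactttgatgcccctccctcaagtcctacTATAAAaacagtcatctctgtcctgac

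Both sequences hold TATAAA close to the start, 30 to 25 bases before it in Duoxa2 and 27 to 22 bases before it in Reg3g. Promoter windows were found for 9 of the 10 genes. Those of Duox2 and Lcn2 lie mostly in exons annotated by GENCODE (222 and 197 of 250 bases), since the RefSeq start is inside the GENCODE gene, and were left out of the counts that follow, while those of Reg3b and Reg1 hold 74 and 53 exonic bases. The other 7 windows were searched on both strands for TATAAA, for TTCNNNGAA (the STAT site), for TGACTCA (the AP-1 site) and for the kappaB site. TATAAA occurred in 4 of the 7 windows (Reg1, Reg3b, Reg3g and Duoxa2), against 12.4% of 32841 windows of the same length over all genes. With the windows of Duox2 and Lcn2, which held none, it was 4 of 9. Reg1, Reg3b and Reg3g are neighbours of 1 gene family, so their windows are not independent. The STAT site occurred in 1 window (Reg3b, 129 to 121 bases before the start; 7.02% of all windows), the AP-1 site in 2 (Reg1 and Nlrp6; 4.46%) and the kappaB site in 1 (Reg3g; 7.25%). None of these letters was found in the windows of Reg3a or Reg4. The last 150 bases before the start were 69.9% identical between Reg3b and Reg3g when aligned end to end, against 54.3% between Reg3a and Reg3g and 54.1% between Duoxa2 and Reg3g, a pair that is not related.

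Levels of the genes within an organoid differed by orders of magnitude. On a scale of counts per kilobase of transcript after scaling by library size (CPM per kilobase), which allows genes to be compared, the mean level in WT was 1883 ± 193 (SD, n = 3) for Reg1, 262 for Reg4, 133 for Reg3g, 75.6 for Reg3b, 52.6 for Nlrp6 and 46.2 for Reg3a. Duox2 and Duoxa2 had mean levels of 1.95 and 1.36, Lcn2 0.130, and Retnlb was at 0. In DMSO at 16 h the order on the same scale was Reg1 (607 ± 4.19, SD, n = 3), Reg4 (95.0), Nlrp6 (84.9), Reg3g (57.5), Reg3a (12.2), Reg3b (2.45), Duoxa2 (2.35), Duox2 (1.98) and Lcn2 (0.0821). Reg3b and Duoxa2, neighbours in that order, did not differ beyond the spread of Reg3b (SD 0.713). Reg3b thus stood above Nlrp6 in WT of the genotype experiment and near Duox2 in DMSO, although the 2 experiments differ in library type, so this was not tested.

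**Figure D1:**
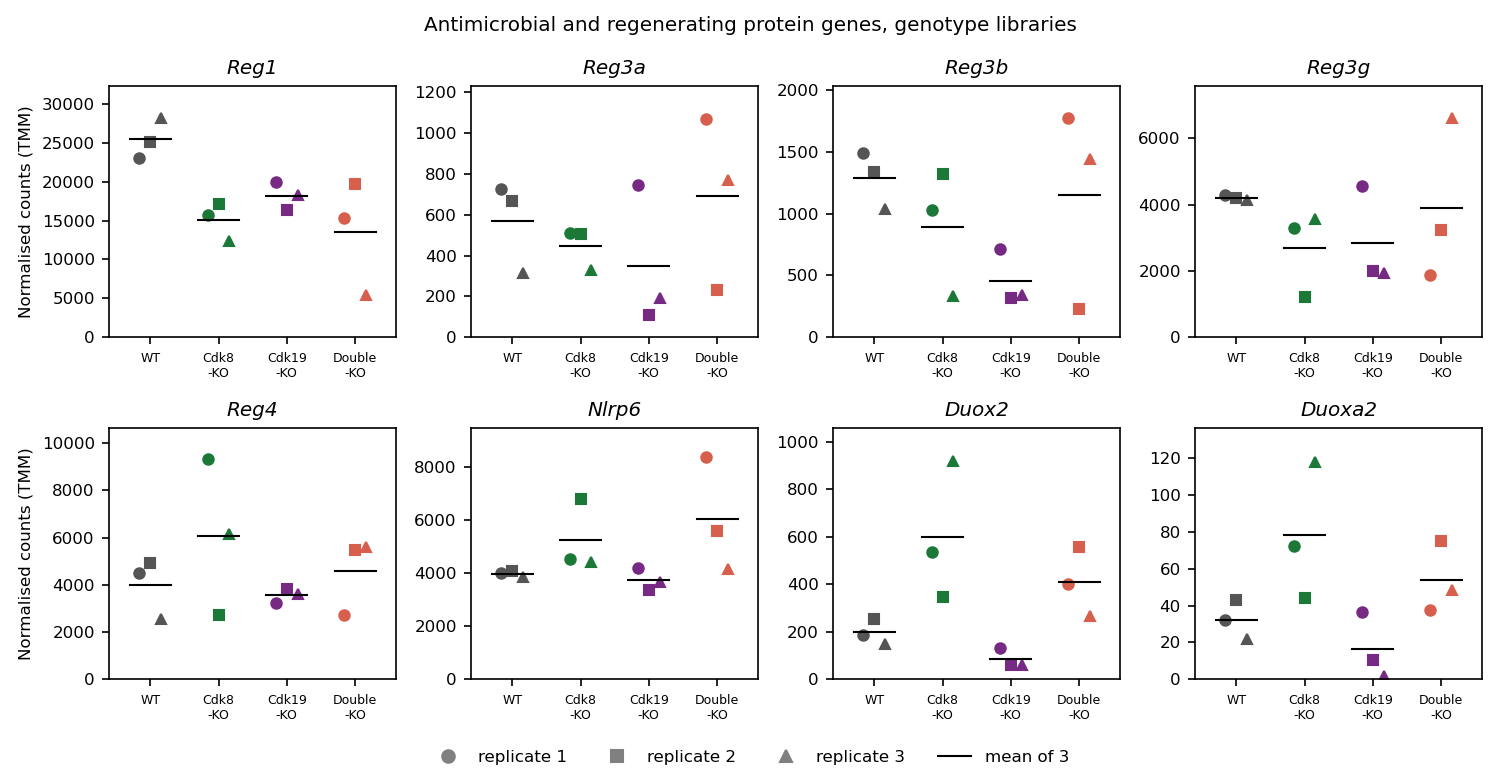
Normalised counts of 8 of the genes in the 12 genotype libraries (vertical axes from 0, 1 panel per gene; symbols are replicates and bars are means of 3). Duox2 ran from 59.2 to 130 in Cdk19-KO and from 345 to 918 in Cdk8-KO, and Reg1 from 5460 in a double-KO library to 28213 in WT.

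**Figure D2:**
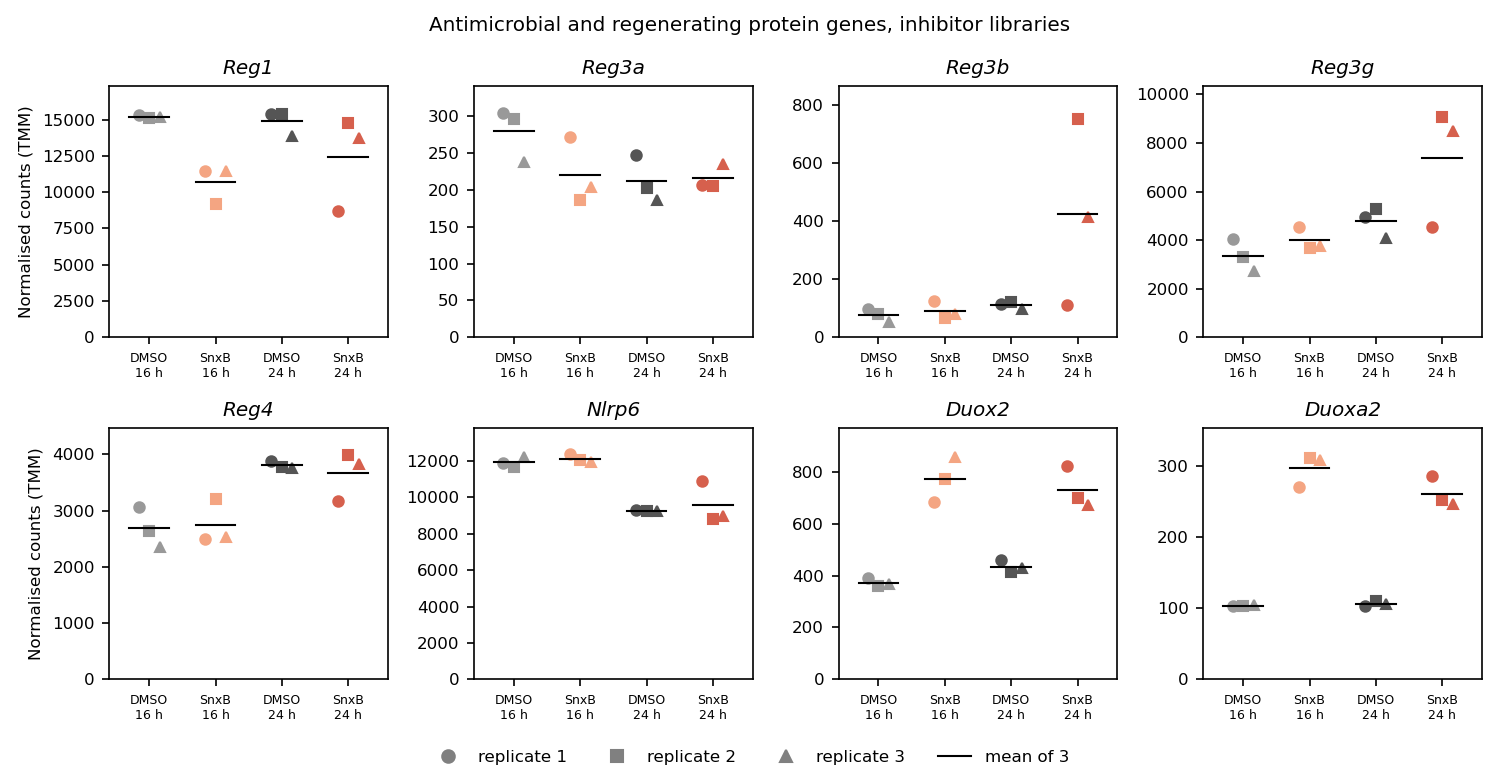
Normalised counts of the same 8 genes in the 12 inhibitor libraries, drawn as in the plot of the genotype libraries. Duoxa2 stayed between 102 and 110 in the 6 DMSO libraries and between 246 and 311 in the 6 Senexin B libraries, while Reg3b reached 753 in a single library.

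Duox2 and Duoxa2, the oxidase and its maturation partner, rose after Senexin B at both times, and they were the only ones of the 8 genes tested to do so. Duoxa2 had 103.7, 102.5 and 104.6 normalised counts in DMSO at 16 h and 270.4, 310.7 and 308.7 in Senexin B at 16 h. At 24 h it had 102.8, 110.2 and 105.8 in DMSO and 285.3, 251.6 and 245.7 in Senexin B. The lowest treated library (245.7) was above the highest DMSO library (110.2). The log2 fold change was 1.52 ± 0.107 (SE) at 16 h, a 2.86-fold rise (edgeR quasi-likelihood test, adjusted p = 3.41e-06), and 1.30 ± 0.107 at 24 h, a 2.45-fold rise (edgeR, adjusted p = 3.85e-06). Duox2 had 390.3, 358.2 and 366.6 normalised counts in DMSO and 684.7, 772.6 and 856.6 in Senexin B at 16 h. It had 461.4, 413.3 and 430.7 in DMSO and 822.1, 701.0 and 671.2 in Senexin B at 24 h. The groups did not overlap at either time, and the rise was 2.08-fold at 16 h (log2 fold change 1.05 ± 0.101, edgeR adjusted p = 3.57e-05) and 1.68-fold at 24 h (0.75 ± 0.100, adjusted p = 0.000172). These 4 calls passed without each of the 6 libraries compared in turn. The change at 24 h less that at 16 h was -0.30 ± 0.142 for Duox2 (edgeR adjusted p = 0.388) and -0.22 ± 0.151 for Duoxa2 (adjusted p = 0.571), so neither differed detectably between the times.

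In the genotype experiment Duox2 was upregulated in Cdk8-KO but not in Cdk19-KO, and its level differed most between these single knockouts. It had 188.1, 255.7 and 149.3 normalised counts in WT, 534.9, 344.7 and 918.0 in Cdk8-KO, 130.0, 61.3 and 59.2 in Cdk19-KO and 402.9, 558.3 and 265.1 in double-KO. Ordered by mean, Cdk8-KO (599 ± 292, SD, n = 3) came before double-KO (409 ± 147), WT (198 ± 53.9) and Cdk19-KO (83.5 ± 40.3). The libraries of Cdk8-KO and double-KO overlapped, whereas double-KO and WT, and WT and Cdk19-KO, did not. The change against WT was 1.60 ± 0.392 in Cdk8-KO (3.03-fold, edgeR adjusted p = 0.0384), 1.05 ± 0.391 in double-KO (adjusted p = 0.0848) and -1.25 ± 0.420 in Cdk19-KO (adjusted p = 0.271). Against Cdk19-KO it was 2.84 ± 0.420 in Cdk8-KO (7.18-fold, adjusted p = 0.00194) and 2.29 ± 0.418 in double-KO (4.90-fold, adjusted p = 0.00226), and both of these passed without each of the 6 libraries in turn. The call of Cdk8-KO against WT rested on few libraries. It passed without Cdk8-KO replicate 2 (edgeR adjusted p = 0.0215), but not without WT replicate 1 (0.143), WT replicate 2 (0.0778), WT replicate 3 (0.136), Cdk8-KO replicate 1 (0.074) or Cdk8-KO replicate 3 (0.13), nor with reads of both strands counted (0.0502). Without both Cdk19-KO replicate 1 and double-KO replicate 3, Duox2 was at -1.70 ± 0.424 in Cdk19-KO against WT (edgeR adjusted p = 0.0536), and double-KO was called higher than WT (1.28 ± 0.351, 0.0301). Against Cdk19-KO it was then 3.29 in Cdk8-KO (0.000923) and 2.98 in double-KO (0.00108).

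Duoxa2 was a low-count gene in the genotype libraries, with 32.2, 43.1 and 21.9 normalised counts in WT, 72.5, 43.9 and 118.1 in Cdk8-KO, 36.3, 10.7 and 1.97 in Cdk19-KO and 37.7, 74.8 and 48.6 in double-KO. The WT and Cdk8-KO libraries did not overlap, by less than 1 count, and no change against WT passed the test (Cdk8-KO 1.27 ± 0.599, adjusted p = 0.246; Cdk19-KO -0.99 ± 0.664, 0.667; double-KO 0.73 ± 0.605, 0.439). Cdk8-KO exceeded Cdk19-KO by 2.26 ± 0.641 (4.79-fold, edgeR adjusted p = 0.0355). This call was kept without Cdk8-KO replicate 2 (0.0299) or Cdk19-KO replicate 1 (0.00452) but was lost without Cdk8-KO replicate 1 (0.0703), Cdk8-KO replicate 3 (0.118), Cdk19-KO replicate 2 (0.138) or Cdk19-KO replicate 3 (0.0934). Without both Cdk19-KO replicate 1 and double-KO replicate 3, Duoxa2 exceeded Cdk19-KO by 3.57 ± 0.665 in Cdk8-KO (edgeR adjusted p = 0.00525) and by 3.11 ± 0.703 in double-KO (0.00915), and its change in Cdk19-KO against WT was -2.31 ± 0.691 (0.101). Duoxa1, with which Duoxa2 shares sequence and an overlap, had 1.97 to 46.1 normalised counts in the genotype libraries (7.04, 15.4 and 6.26 in WT, 18.1, 16.3 and 46.1 in Cdk8-KO). Since these libraries carry no strand, reads of the 2 genes cannot be told apart where they overlap. In the stranded inhibitor libraries Duoxa1 had at most 6.16 normalised counts.

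**Figure D3:**
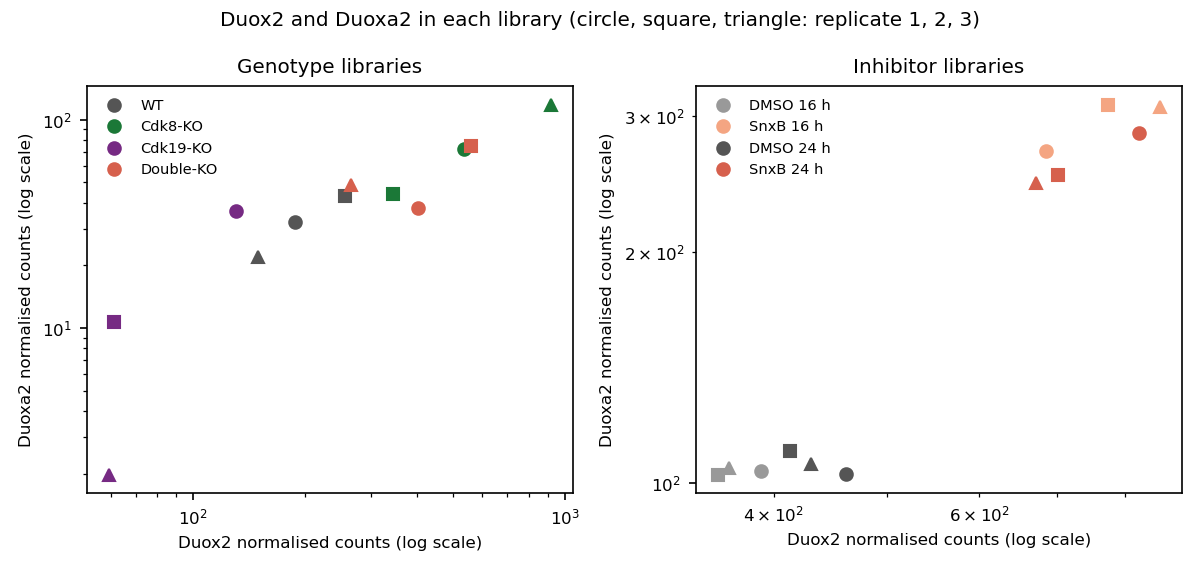
Normalised counts of Duoxa2 against those of Duox2 on log axes, 1 point per library, genotype libraries on the left and inhibitor libraries on the right, coloured by group. Senexin B libraries stand apart from DMSO libraries on both axes, and Pearson's r of log2 CPM was 0.909 over the 12 genotype libraries and 0.974 over the 12 inhibitor libraries.

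Duox2 and Duoxa2 tracked each other from library to library. Pearson's r of their log2 CPM was 0.909 over the 12 genotype libraries and 0.974 over the 12 inhibitor libraries, which share the group differences. After the group means were taken out it was 0.783 and 0.721. These are descriptions over libraries of 1 experiment that share their group and processing. For the other members tested r with Duox2 lay between -0.25 (Reg1) and 0.58 (Nlrp6) over the genotype libraries and between -0.78 (Reg1) and 0.37 (Reg3g) over the inhibitor libraries.

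Cell type markers moved with Duox2 in part of the comparisons. The 13 Paneth cell markers summed to 1477 to 1940 CPM in WT, 4440 to 5977 in Cdk8-KO, 1583 to 1929 in Cdk19-KO and 2874 to 5798 in double-KO, with Defa20 and Defa23 at 0 in the genotype libraries. Of the 11 tested, 11 rose in Cdk8-KO (5.15% of all genes called) and 9 in double-KO (17.3%) against WT, led by Lyz1 (lysozyme, log2 fold change 2.01 ± 0.22 and 2.13 ± 0.22) and Defa22 (an alpha-defensin, 2.10 and 1.94). Duox2 also rose after Senexin B at both times. At 16 h 3 of 12 tested fell (7.75% of all genes called), Itln1 (-0.66), Defa24 (-0.47) and Defa30 (-0.45), while Lyz1 was at -0.53 (edgeR adjusted p = 0.0901), and the sum was 1948 to 2497 against 2547 to 3525 in DMSO. At 24 h 8 of 12 fell (27.5%), among them Itln1 (-1.19) and Lyz1 (-1.02), and the sum was 1650 to 2204 against 3595 to 3851. With the replicate number as a block, 4 fell and 1 rose at 16 h (14.8% of all genes called), since Lyz1 (-0.55, edgeR adjusted p = 0.035) and Defa22 (0.34, 0.0429) were then called, and 9 fell at 24 h (36.9%), with Mmp7 (-0.33, 0.0249) in addition. Of 8 goblet cell markers, 3 rose in Cdk8-KO, 2 in double-KO, and 4 and 5 after 16 h and 24 h of Senexin B (7.75% and 27.5% of all genes called), with 1 lower at 24 h. They were led by the mucin gene Muc2 in the knockouts (0.98 and 1.36), by Clca1 at 16 h (0.85) and by Zg16 at 24 h (1.08). With the block 2 goblet cell markers were also lower at 16 h (Fcgbp and Spink4) and 2 at 24 h. Their part in the changes of Duox2 was not tested. In whole organoids, fewer cells of a type and less RNA per cell cannot be told apart.

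The secreted lectin Reg1, made by epithelial and pancreatic cells, was the most abundant of the 10 genes and was lower after 16 h of Senexin B. It had 15301, 15095 and 15165 normalised counts in DMSO and 11442, 9169 and 11433 in Senexin B at 16 h, without overlap. The fall was -0.51 ± 0.147 on the log2 scale (edgeR adjusted p = 0.0487). The call did not hold without any 1 of the 6 libraries (adjusted p of 0.0619 without DMSO replicate 1, 0.107 without DMSO replicate 2, 0.0956 without DMSO replicate 3, 0.0792, 0.189 and 0.0887 without Senexin B replicates 1, 2 and 3). At 24 h the counts were 15406, 15394 and 13889 in DMSO and 8712, 14784 and 13701 in Senexin B, where the groups overlapped (-0.26 ± 0.146, adjusted p = 0.197). In the genotype experiment Reg1 had 23034, 25058 and 28213 counts in WT, above every library of Cdk8-KO (15684, 17119 and 12312), Cdk19-KO (20001, 16329 and 18252) and double-KO (15356, 19684 and 5460). None of these differences passed the test (-0.76 ± 0.330, adjusted p = 0.208; -0.48 ± 0.328, 0.675; -0.91 ± 0.330, 0.0769). The comparison of double-KO with WT did pass without double-KO replicate 3 (-0.54, 0.0445) or double-KO replicate 2 (-1.29, 0.0297), and also without both double-KO replicate 3 and Cdk19-KO replicate 1 (-0.54, 0.037).

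Reg3b and Reg3g, the bactericidal lectins, were called higher after 24 h of Senexin B, in each case through 2 of the 3 treated libraries. Reg3b had 115.4, 121.9 and 96.2 normalised counts in DMSO at 24 h and 112.9, 752.7 and 413.3 in Senexin B. Reg3g had 4945, 5276 and 4086 in DMSO and 4557, 9089 and 8490 in Senexin B. Replicate 1 of Senexin B lay within the DMSO range for both genes, and it was also the treated library with the lowest Reg1 (8712) and Reg4 (3177) and the highest Nlrp6 (10878) and Duox2. The fitted rises were 1.94 ± 0.464 for Reg3b (3.84-fold, edgeR adjusted p = 0.00739) and 0.63 ± 0.206 for Reg3g (1.55-fold, adjusted p = 0.0351). Without Senexin B replicate 1 they were 2.39 (adjusted p = 7.03e-05) and 0.88 (0.000924). Without Senexin B replicate 2 they were 1.24 (0.051) and 0.45 (0.168). Reg3g also lost its call without Senexin B replicate 3 (0.128) and without DMSO replicate 1 (0.0695), replicate 2 (0.0502) or replicate 3 (0.119).

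At 16 h neither lectin was called. Reg3b had 98.6, 80.0 and 53.8 normalised counts in DMSO and 126.4, 68.0 and 78.7 in Senexin B (0.23 ± 0.534, adjusted p = 0.85), and Reg3g had 4061, 3290 and 2740 against 4535, 3661 and 3780 (0.25 ± 0.206, adjusted p = 0.534). The difference between the effects at 24 h and 16 h was 1.71 ± 0.707 for Reg3b (adjusted p = 0.344) and 0.38 ± 0.291 for Reg3g (adjusted p = 0.616), so a later rise was not established by the test of the difference itself. Within groups of the inhibitor experiment, deviations of Reg3b and Reg3g from their group means had r = 0.948 over 12 libraries, and those of Reg1 and Reg3b r = 0.904, whereas Nlrp6 and Reg3b had r = -0.84.

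Among the genotypes Reg3b had 1493, 1340 and 1036 normalised counts in WT, 1028, 1322 and 333 in Cdk8-KO, 717, 316 and 344 in Cdk19-KO and 1771, 232 and 1441 in double-KO. All Cdk19-KO libraries were below all WT libraries, but the change of -1.49 ± 0.624 did not pass the test (adjusted p = 0.404), nor did it without both Cdk19-KO replicate 1 and double-KO replicate 3 (-1.95 ± 0.738, adjusted p = 0.195). Reg3g had 4303, 4209 and 4138 in WT, which are close to each other, and spread from 1224 to 3583 in Cdk8-KO, 1953 to 4575 in Cdk19-KO and 1868 to 6624 in double-KO. Its changes against WT were -0.64 ± 0.473 in Cdk8-KO (adjusted p = 0.475), -0.57 ± 0.473 in Cdk19-KO (0.76) and -0.11 ± 0.471 in double-KO (0.897). The SD of the double-KO libraries (2449 normalised counts) exceeded every difference between the group means, which lay between 2705 and 4217.

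Reg3a and Reg4 did not pass the test in any comparison with WT or DMSO of the same time. Reg3a, a close relative of Reg3b and Reg3g, had 726, 668 and 315 normalised counts in WT, 510, 506 and 330 in Cdk8-KO, 747, 107 and 191 in Cdk19-KO and 1071, 232 and 773 in double-KO, and 186 to 304 in the 12 inhibitor libraries. The largest of these changes was -0.71 ± 0.641 in Cdk19-KO (adjusted p = 0.782), and it was -1.93 ± 0.602 (0.115) without both Cdk19-KO replicate 1 and double-KO replicate 3. Reg4, which marks secretory cells of the gut, had 2557 to 4942 in WT, 2730 to 9335 in Cdk8-KO, 3214 to 3814 in Cdk19-KO and 2708 to 5585 in double-KO. It was nearly level with Senexin B (0.03 ± 0.114 at 16 h, adjusted p = 0.918; -0.06 ± 0.113 at 24 h, 0.739). It was higher in DMSO at 24 h (3889, 3784 and 3754) than in DMSO at 16 h (3069, 2630 and 2353), by 0.51 ± 0.113 (1.42-fold, edgeR adjusted p = 0.0146), a call that was lost without DMSO 16 h replicate 3 (0.0751) or DMSO 24 h replicate 1 (0.0539).

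Nlrp6, the inflammasome-family sensor, varied little in the inhibitor libraries and was not called after Senexin B. It had 11914, 11668 and 12206 normalised counts in DMSO and 12377, 12030 and 11950 in Senexin B at 16 h (0.02 ± 0.0729, adjusted p = 0.897). At 24 h it had 9304, 9240 and 9268 in DMSO and 10878, 8835 and 8985 in Senexin B (0.05 ± 0.0731, adjusted p = 0.681). Between the DMSO groups it fell from 16 h to 24 h by 0.36 ± 0.0731 on the log2 scale (0.777-fold, edgeR adjusted p = 0.00878), and this passed without each of the 6 libraries. In the genotype experiment it had 3996, 4101 and 3877 in WT, 4523, 6784 and 4443 in Cdk8-KO, 4217, 3381 and 3670 in Cdk19-KO and 8369, 5580 and 4155 in double-KO. The Cdk8-KO and double-KO libraries were all above WT, with changes of 0.40 ± 0.222 (adjusted p = 0.335) and 0.60 ± 0.222 (0.0848). The second of these passed without double-KO replicate 3 (0.81, 0.0204), and without both it and Cdk19-KO replicate 1 (0.81, 0.0186). Double-KO exceeded Cdk19-KO by 0.68 ± 0.223 (1.61-fold, edgeR adjusted p = 0.0413), although the lowest double-KO library (4155) lay under the highest Cdk19-KO library (4217), and the call was lost without Cdk19-KO replicate 2 (0.142), Cdk19-KO replicate 3 (0.116), double-KO replicate 1 (0.169) or double-KO replicate 2 (0.0622). Without both Cdk19-KO replicate 1 and double-KO replicate 3 it was 0.97 ± 0.219 (adjusted p = 0.00905).

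Retnlb and Lcn2 were too low to be tested with all libraries. Retnlb had 0 counts in all 24 libraries, and a count of 0 allows up to 3 counts, or 0.194 to 0.205 CPM in a genotype library and 0.106 to 0.111 CPM in an inhibitor library, counting error only. Lcn2 had 8, 3 and 4 counts as deposited in WT, 13, 9 and 25 in Cdk8-KO, 2, 3 and 1 in Cdk19-KO and 10, 10 and 9 in double-KO. Its order over the genotypes was that of Duox2 by group mean, at counts where single reads matter. In the inhibitor libraries it had 0 to 7 counts.

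Read over the 8 genes that were tested, the counts of calls were as follows. In Cdk8-KO against WT 1 was called (Duox2, higher), against 5.15% of 15602 genes, and 5 had groups that did not overlap, against 29.6% of genes. In Cdk19-KO against WT 0 were called, as were 0% of all genes by edgeR, although 2 of the 8 and 1691 genes had an unadjusted p under 0.05 and DESeq2 called 313 genes, none of them a member, and 3 members did not overlap (20% of genes). In double-KO against WT 0 were called against 17.3% of genes, 3 had an unadjusted edgeR p under 0.05 (32.1% of genes), and 3 did not overlap (38.8%). DESeq2 called 3 there (Reg1, Nlrp6 and Duox2), without its share of all genes given here. Double-KO and Cdk8-KO differed in 0 members, against 0.0256% of genes, also at an unadjusted edgeR p under 0.05 (15.5% of genes) and by DESeq2. Against Cdk19-KO, 2 were called in double-KO (25.3%) and 2 in Cdk8-KO (13.8%). The departure of double-KO from the sum of the single knockouts was called for 0 members (0.0256% of genes), with 0 at an unadjusted p under 0.05 (14.5%) and 0 by DESeq2. It was 0.69 ± 0.562 for Duox2 (adjusted p = 0.61) and 1.85 ± 0.868 for Reg3b (adjusted p = 0.354). The counts that involve Cdk19-KO or double-KO changed without both Cdk19-KO replicate 1 and double-KO replicate 3, a fit in which Lcn2 passed the filter too. It called 3 members in double-KO against WT (Reg1 lower, Nlrp6 and Duox2 higher; 19% of 15821 genes). Against Cdk19-KO it called 5 in double-KO (Reg3a, Nlrp6, Lcn2, Duox2 and Duoxa2, all higher; 28.5%) and 3 in Cdk8-KO (Lcn2, Duox2 and Duoxa2, all higher; 20.6%). The counts of 5 and 3 include Lcn2, which passed the filter there only through libraries where it is high. Its calls are therefore no test of those groups. In Cdk19-KO against WT that fit called 0 members and 666 genes (4.21%), and leaving out Cdk19-KO replicate 1 alone gave 0 members and 521 genes. The departure from additivity was then 1.39 ± 0.542 for Duox2 (adjusted p = 0.187) and 2.14 ± 0.980 for Reg3b (0.265), with 0 members and 728 genes (4.6%) called.

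With Senexin B, 3 members were called at 16 h (Duox2 and Duoxa2 higher, Reg1 lower) against 7.75% of 15467 genes, and the groups of these 3 did not overlap (24.8% of genes). At 24 h 4 were called, all higher, against 27.5%, and 2 of them, Duox2 and Duoxa2, did not overlap (45.6%). The effects at the 2 times differed for 0 members and 0% of genes by edgeR, with 1 member (Reg3b) and 1995 genes at an unadjusted p under 0.05, and for 0 members and 73 genes by DESeq2. The replicate numbers may pair these libraries, although correlations between libraries set only replicate 1 apart. With the number as a block the same counts of members, 3 and 4, stand against 14.8% and 36.9% of genes (2293 and 5712). Between the DMSO groups 2 members were called, Reg4 and Nlrp6, against 11.1% of genes. The median log2 fold change of the 8 was 0.02 in Cdk8-KO, -0.64 in Cdk19-KO, 0.24 in double-KO, 0.13 after 16 h of Senexin B and 0.34 after 24 h, while that of all genes tested lay within 0.02 of 0. The comparisons with WT share the WT libraries.

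**Figure D4:**
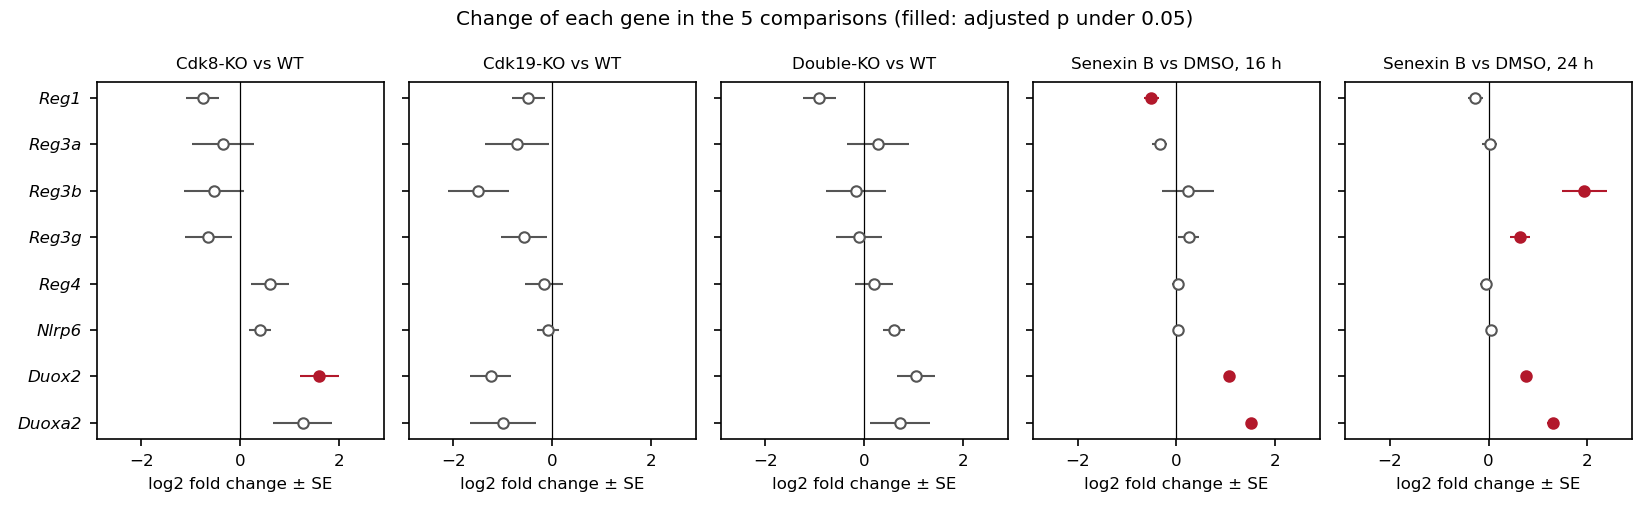
Fitted log2 fold change of the 8 genes tested (points, with SE as bars; filled where the edgeR adjusted p was under 0.05) in the 3 comparisons with WT and the 2 with DMSO. Duox2 lies at 1.60 in Cdk8-KO and -1.25 in Cdk19-KO, and Duoxa2 at 1.52 and 1.30 after Senexin B with an SE of 0.107.

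Each of the 8 genes tested varied more between replicates in the genotype libraries than in the inhibitor libraries. The SD of log2 CPM within genotypes, pooled over the 4 groups, was 1.02 for Reg3b, 0.992 for Reg3a, 0.948 for Duoxa2, 0.720 for Reg3g, 0.601 for Reg4, 0.576 for Duox2, 0.516 for Reg1 and 0.318 for Nlrp6, against a median of 0.196 over all genes tested. Reg3b was at percentile 98.6 of all genes and Nlrp6, the steadiest, at percentile 72.3. In the inhibitor libraries Duoxa2 (0.0845), Nlrp6 (0.0860) and Duox2 (0.123) lay below the median of all genes of 0.142, whereas Reg3b (0.767, at percentile 99.6) stayed among the most variable. Deviations of Reg3a and Reg3b from their group means had r = 0.812 over the 12 genotype libraries. The log2 fold change of Duoxa2 had an SE of 0.599 in Cdk8-KO against WT and of 0.107 with Senexin B.

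**Figure D5:**
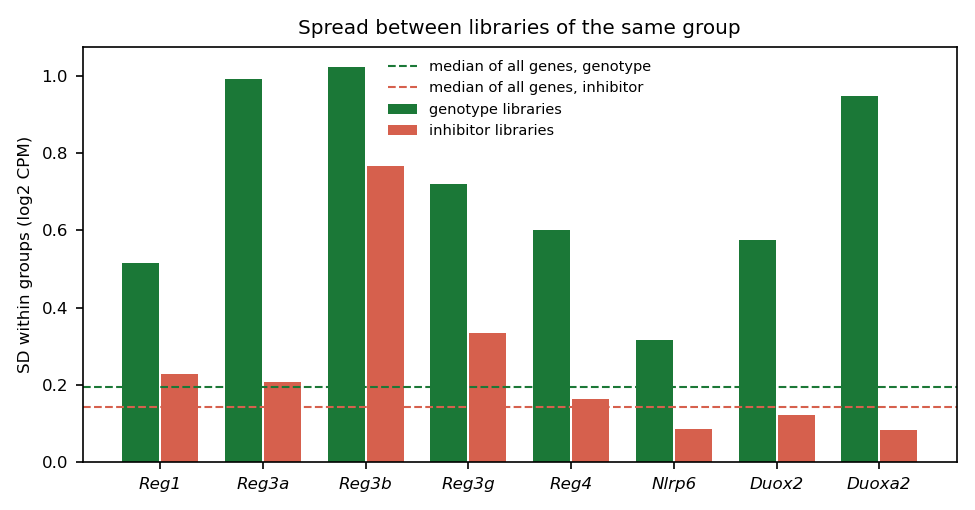
Within-group SD of log2 CPM of the 8 genes, genotype and inhibitor libraries side by side, with the median of all genes tested (0.196 and 0.142). Reg3b is high in both, and Duoxa2 is at 0.948 in the genotype libraries and 0.0845 in the inhibitor libraries.

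Genes whose log2 CPM followed a member most closely were taken for Duox2, Nlrp6 and Reg3g. In the genotype libraries these were Wnt4 (Pearson's r = 0.980 over 12 libraries), Atp6v0e (0.964) and Krt19 (0.957) for Duox2, Scd1 (0.986), Pafah2 (0.981) and Mien1 (0.973) for Nlrp6, and Eci2 (0.924), Acaa1a (0.906) and Gm15788 (0.890) for Reg3g. In the inhibitor libraries they were Dusp4 (0.985), Acta1 (0.984) and Ceacam12 (0.983) for Duox2, Scd2 (0.979), Tm7sf2 (0.971) and Arpc1b (0.969) for Nlrp6, and Hr (0.954), Cyp2j6 (0.952) and Mslnl (0.950) for Reg3g. No gene was among the 3 closest in both experiments for the same member.

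Counts of calls in the gene lists that follow are read against the share of all genes called, 5.15% in Cdk8-KO, 0% in Cdk19-KO and 17.3% in double-KO against WT, and 7.75% and 27.5% after 16 h and 24 h of Senexin B (14.8% and 36.9% with the replicate number as a block). Of 7 NADPH oxidase genes and partners tested in the genotype libraries, 3 rose in Cdk8-KO (median log2 fold change of the 7, 1.03), 0 changed in Cdk19-KO (-0.09) and 2 rose in double-KO (0.57). Nox1, the other NADPH oxidase of the gut epithelium, had 200, 258 and 129 normalised counts in WT, 1004, 936 and 734 in Cdk8-KO, 170, 101 and 74.0 in Cdk19-KO and 443, 419 and 391 in double-KO. It rose by 2.19 ± 0.27 in Cdk8-KO (edgeR adjusted p = 0.00116) and 1.09 ± 0.27 in double-KO (0.0173), and Noxo1, the organiser subunit of Nox1, by 0.45 ± 0.11 (0.0406) and 0.39 ± 0.11 (0.0339). Gpx2, a glutathione peroxidase that removes hydrogen peroxide, rose by 1.03 ± 0.19 in Cdk8-KO (0.0106). In the inhibitor libraries Nox1 had 58.9, 147 and 151 normalised counts in DMSO and 48.3, 44.7 and 45.0 in Senexin B at 16 h, and 34.9, 40.0 and 64.8 in DMSO and 64.7, 63.9 and 50.8 in Senexin B at 24 h. It was lower in Senexin B at 16 h (-1.37 ± 0.31, edgeR adjusted p = 0.0135), where DMSO replicate 1 lay near the treated libraries, and DMSO itself was lower at 24 h than at 16 h (-1.35 ± 0.31, 0.0147). At 24 h the change was 0.36 ± 0.33 (0.444). Noxa1, the activator subunit, rose by 0.86 (0.00617) and 1.55 (3.64e-05). In all, 1 of 6 rose and 1 fell at 16 h (median 0.06), and 4 rose at 24 h (0.44), among them Gpx2 (0.59) and Cyba (0.47), the membrane subunit p22phox. With the replicate number as a block 2 rose at 16 h, since Gpx2 was then called (0.37, edgeR adjusted p = 0.0173).

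Genes of the interleukin-22 and STAT3 pathway gave calls in both directions. Il22ra1, the interleukin-22 receptor chain, was at -0.26 ± 0.13 at 16 h (adjusted p = 0.272) and fell at 24 h (-0.49 ± 0.13, edgeR adjusted p = 0.0124), and its partner Il10rb was at 0.09 and 0.16 (0.571 and 0.144). Stat3, the transcription factor, fell at 16 h (-0.45 ± 0.06, edgeR adjusted p = 0.000383) and at 24 h (-0.49 ± 0.06, 8.43e-05) and rose in double-KO against WT (0.40 ± 0.09, 0.0116). Of 12 genes of the interleukin-22 and STAT3 pathway tested, 2 rose and 1 fell at 16 h and 3 rose and 3 fell at 24 h, where 7.75% and 27.5% of all genes were called. Those that rose were Il18 (1.00 at 16 h, 1.06 at 24 h), the acute-phase gene Saa1, which had 0.969 to 3.98 normalised counts in the 6 DMSO libraries and 25.4 to 44.1 in the 6 Senexin B libraries (adjusted p = 0.000111 and 1.12e-05), and at 24 h Steap4 (1.14). In the genotype libraries 1 of 10 rose in Cdk8-KO (Fut2, a fucosyltransferase, 1.53), 0 in Cdk19-KO and 4 in double-KO (17.3% of all genes), led by Fut2 (1.21), Il18 (1.20) and Il10rb (0.70). Reg3d, the other Reg gene that passed the filter, had 7.18 to 23.6 normalised counts in the inhibitor libraries and was not called in any of these comparisons (1.03 ± 0.33 at 16 h of Senexin B, adjusted p = 0.0762).

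Of the inflammasome genes, of which several are sensors separate from NLRP6, 10 were tested, and 16 of the NF-kappaB pathway. Of the inflammasome genes 2 rose in Cdk8-KO (5.15% of all genes called), 0 were called in Cdk19-KO and 5 rose in double-KO (17.3%), among them Naip1, a sensor of bacterial proteins (0.86 ± 0.14 and 1.29 ± 0.14), its partner Nlrc4 (0.45 and 0.61) and Naip5 (1.24 in double-KO). The adaptor Pycard, which NLRP6 binds, was at -0.07 in both (adjusted p = 0.907 and 0.871). After Senexin B 2 rose and 3 fell at 16 h, and 3 rose and 5 fell at 24 h (7.75% and 27.5% of all genes called), with Naip1 (0.67) and Casp4 (0.48) higher at 16 h and Naip6 (-1.04), Naip2 (-0.69) and Naip5 (-0.57) lower at 24 h. Casp1, the effector caspase, rose in double-KO (0.30 ± 0.09, adjusted p = 0.0331) and Pycard after 24 h of Senexin B (0.33 ± 0.07, 0.00568). Of the NF-kappaB genes 1 rose in Cdk8-KO (Tnfaip3, an inhibitor of the pathway, 0.60), 0 changed in Cdk19-KO and 3 rose in double-KO (the chemokines Cxcl1, 1.80, and Ccl20, 1.55, and Tnfaip3, 0.84). After Senexin B 1 rose at 16 h (Nod2, 0.56) and 3 at 24 h, among them Nos2 (0.76) and Nod2 (0.51), and 2 fell at 24 h, among them the flagellin receptor Tlr5 (-0.84). The calls among the 16 NF-kappaB genes (1 and 3 in Cdk8-KO and double-KO, 1 and 5 after Senexin B) stand against 5.15%, 17.3%, 7.75% and 27.5% of all genes. With the replicate number as a block 4 rose at 16 h, and 4 rose and 3 fell at 24 h (14.8% and 36.9% of all genes). The adaptor Myd88 and the receptor Tlr2 were called in none of the 5 comparisons, though Tlr2 was with the block at 16 h (0.66, edgeR adjusted p = 0.018).

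Markers of the other epithelial cell types, which also make some of the 10 products, gave these counts of calls, to be read against the same shares of all genes (5.15%, 0%, 17.3%, 7.75% and 27.5%). Of 9 enterocyte markers 1 rose in Cdk8-KO (Apoa4, 1.09), 0 changed in Cdk19-KO, 6 rose in double-KO (led by Krt20, 1.88, Lct, 1.61, and Apoa4, 1.59), and 1 rose and 1 fell at 16 h and 3 rose and 2 fell at 24 h of Senexin B (Lct 3.64, Sis -0.92 and Krt20 -0.82 at 24 h; with the replicate number as a block Alpi was lower as well). Of 5 stem cell markers 1 fell in Cdk8-KO and at both times of Senexin B (Lgr5, -0.86, -0.47 and -0.97) and 4 fell in double-KO (led by Lgr5, -1.23, Ascl2, -1.04, and Smoc2, -0.53). With the block Smoc2 rose at 24 h of Senexin B (0.20, edgeR adjusted p = 0.0278). No enteroendocrine marker was called in the 3 comparisons with WT (10 tested). Against Cdk19-KO, 3 were higher and 1 lower in Cdk8-KO (13.8% of all genes called; led by Gcg, 3.91, Pyy, 3.49, and Sct, 2.83), and 1 was higher and 2 lower in double-KO (25.3%; Gcg, 2.86, Neurog3, -0.94, and Tac1, -0.89). After Senexin B 4 of 9 rose and 1 fell at 16 h and 5 rose and 1 fell at 24 h, led by Gcg (2.11 and 2.57). No immune or stromal marker that passed the filter was called in the 5 comparisons with WT or with DMSO of the same time (edgeR), but the immune markers Ptprc (3.31 ± 0.91, adjusted p = 0.0197) and Itgam (2.44 ± 0.54, 0.00667) were higher in double-KO than in Cdk19-KO, and the stromal marker Pdgfra was higher in DMSO at 24 h than at 16 h (1.44 ± 0.31, 0.0124), at 0 to 30.6 normalised counts in these groups. With the replicate number as a block the immune marker Cd68 was called lower at 24 h of Senexin B (-0.46, edgeR adjusted p = 0.0445). The part of these cell types in the levels of the 10 genes was not tested.

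The list counts of Cdk19-KO and double-KO also rest on the 2 libraries with Cdk19 counts at the WT level. Without both, Cdk19-KO against WT (4.21% of all genes called) had 4 of 9 enterocyte markers lower (led by Lct, -2.46, Krt20, -1.85, and Fabp2, -1.34), 3 of 8 goblet cell markers lower (Zg16, -1.73, Spink4, -1.21, and Muc2, -0.81) and 3 of 5 stem cell markers higher (Olfm4, 1.09, Lgr5, 0.59, and Axin2, 0.50). Of the Paneth cell markers 1 was higher (Defa22, 0.85), and of the enteroendocrine markers 1 was higher (Neurog3, 0.96) and 1 lower (Gcg, -4.42). Nox1 (-1.15), Il18 (-1.46), Gsdmd (-0.95), Naip1 (-0.65) and Nos2 (-2.06) were lower and Rela (0.54) higher, the only calls among the oxidase, interleukin-22, inflammasome and NF-kappaB lists there by edgeR.

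In double-KO against WT without both libraries (19% of all genes called) 7 of 11 Paneth cell markers were higher (9 with all libraries), 4 of 8 goblet cell markers (2) and 7 of 9 enterocyte markers (6), and 4 of 5 stem cell markers were lower (4). Of the oxidase genes 3 were higher and 1 lower (2 higher with all libraries). The lower gene was Cyba (-1.76 ± 0.45, edgeR adjusted p = 0.0228), which rose after 24 h of Senexin B. Of the interleukin-22 and STAT3 genes 4 were higher (4), of the inflammasome genes 4 (5) and of the NF-kappaB genes 1 (3), which was Tnfaip3 (0.75). Ptprc (4.35 ± 1.34, edgeR adjusted p = 0.0346) and Itgam (2.22 ± 0.66, 0.0305) were higher in double-KO than in Cdk19-KO also then.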

How the data were processed

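RNA was measured by sequencing in 24 libraries. The authors aligned reads to GRCm38.p6 and counted them per gene with STAR (2.6.0c in the submitters' processing notes), and the deposited values are raw read counts per gene in an unstranded and 2 stranded columns, of which the last was used for both experiments. The labels describe poly(A) selection, whereas the descriptions of the inhibitor libraries name rRNA-depleted RNA. Positions were taken from GENCODE vM21 and promoters from RefSeq.

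Each experiment was normalised (TMM) and filtered (filterByExpr) on its own, and the 12 libraries were fitted in 1 model of group means (edgeR 4.0.16 under R 4.3.3, quasi-likelihood F-test), which left 15602 and 15467 genes. Genes with a Benjamini-Hochberg adjusted p under 0.05 over all genes in 1 of the 11 comparisons were called. The SE is the log2 fold change divided by the root of F. Normalised counts are TMM-scaled to the mean library, and log2 CPM used a prior count of 2. Figures were drawn with matplotlib 3.10.9. The test was tried on simulated data with known changes.

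All 10 members were named, and of each other list the first 2 genes tested and the 3 largest called changes. For 3 members the 3 genes of most similar pattern were named. The lists were NADPH oxidases and partners, other Reg genes, the interleukin-22 and STAT3 pathway, the inflammasome, NF-kappaB, and markers of Paneth, goblet, enteroendocrine, enterocyte, stem, intestinal epithelium, immune, stromal and mammary cells. The members and lists were chosen with earlier results of these data known. Of the cell type lists only some of these genes are named.

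Alternatives were DESeq2 size factors, the Wald test of DESeq2 1.42.0, no filter, at least 10 counts in every library, a block for the replicate number, counts of both strands, only the groups compared, and leaving out each library. Leaving out Cdk19-KO replicate 1 and double-KO replicate 3 together was chosen after seeing the data, from their Cdk19 counts. Deviations of same-numbered DMSO and Senexin B libraries from their group means correlated at 0.303, 0.101 and 0.110 at 16 h. At 24 h they correlated at 0.377, 0.137 and 0.187. Senexin B replicate 2 correlated more with DMSO replicate 3 (0.1541 at 16 h and 0.1465 at 24 h) than with DMSO replicate 2. The correlations thus set replicate 1 apart but do not tell replicates 2 and 3 apart, so a pairing by number is not established. Nothing but the correlations bears on it. Replicates within a group differed by more than counting noise.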

Additional observations from a re-analysis of the deposited data

How the results depend on the processing

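Of the comparisons, the number of the 10 genes called changed as follows. Without the filter on low counts (29805 and 28413 genes tested) it was 2 for Cdk19-KO against WT (0 with the filter), 4 for Cdk8-KO against Cdk19-KO (2), 2 for Cdk8-KO against WT (1), 1 for the departure from additivity (0), 5 for double-KO against Cdk19-KO (2), 3 for double-KO against WT (0) and 1 for the difference between 24 h and 16 h of Senexin B (0). With only the 2 groups compared it was 1 for Cdk8-KO against Cdk19-KO, 2 for Cdk8-KO against WT, 1 for double-KO against Cdk19-KO and 1 for double-KO against WT. The Wald test of DESeq2 called 3 in double-KO against WT, at least 10 counts in every library left 1 in Cdk8-KO against Cdk19-KO, since Duoxa2 was then not tested, and the unstranded column left 0 in Cdk8-KO against WT. Leaving out single libraries gave 1 to 4 for Cdk8-KO against Cdk19-KO, 0 to 1 for Cdk8-KO against WT, 1 to 2 for the DMSO groups, 1 to 5 for double-KO against Cdk19-KO, 0 to 2 for double-KO against WT, 2 to 2 for Senexin B at 16 h and 2 to 4 at 24 h. Without both Cdk19-KO replicate 1 and double-KO replicate 3, an alternative chosen after seeing the data, 5 were called in double-KO against Cdk19-KO (28.5% of all genes). Lcn2, which passed that filter only through libraries where it is high, was among the 5. In double-KO against WT 3 were then called (19%). The number of all genes called under the same alternative is given here for part of these counts only. The other counts do not show whether the members changed more than genes in general. The cause of these shifts was otherwise not tested.

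With the replicate number as a block the calls of Senexin B against DMSO were the same (3 and 4 members). For the genotype replicates no pairing by number is known, and in no genotype comparison did every same-numbered pair correlate above 0.1. There the block gave 0 for Cdk8-KO against WT (Duox2, adjusted p = 0.0644) and 1 for Cdk8-KO against Cdk19-KO (Duoxa2, 0.0548). For the DMSO groups, whose numbers did not all correlate (0.366, -0.050 and 0.284), it called 3 members. Over all genes the block gave 2293 calls against 1198 at 16 h of Senexin B, 5712 against 4252 at 24 h and 3281 against 1719 between the DMSO groups, and the 2 groups alone gave 725 at 16 h of Senexin B and 385 between the DMSO groups. In Cdk8-KO against WT DESeq2 called 1319 genes and the unfiltered test 1269, against 804. Without a filter 479 genes were called in Cdk19-KO against WT, 358 in double-KO against Cdk8-KO, 566 for additivity and 121 for the difference between times, where the main counts were 0, 4, 4 and 0.

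Changes of sign occurred when single libraries were left out, among changes that had not been called. On the log2 scale these changes then ran from -0.078 to 1.78 for Duoxa2 (additivity), -0.057 to 0.099 for Nlrp6 (24 h of Senexin B), -0.17 to 0.69 for Reg3a (double-KO), -0.062 to 0.15 for Reg3a (24 h), -0.62 to 0.32 for Reg3b (double-KO), -0.078 to 0.44 for Reg3b (16 h), -0.73 to 0.24 for Reg3g (double-KO), -0.39 to 0.029 for Reg4 (Cdk19-KO), -0.028 to 0.48 for Reg4 (double-KO), -0.089 to 0.14 for Reg4 (16 h) and -0.12 to 0.035 for Reg4 (24 h). Under the alternatives that left out no library 332 values of single genes kept their direction and side of the threshold, 8 lost and 13 gained a call, and none changed sign. Normalised counts of 1.97 to 43.1 for Duoxa2 in WT and Cdk19-KO, and at most 25 counts for Lcn2, limit what could be detected for these genes.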
